A study of Gallus gallus with 12 samples.

Results

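Genes for integrins, laminins and the glycoproteins that tie basement membranes together were followed in ovarian follicles of the laying hen (Gallus gallus). Members were chosen by symbol from the deposited table of estimated counts. They are every row that begins with ITGA or ITGB followed by a digit, V, E or M, every LAMA, LAMB or LAMC row followed by a digit, and NID1, NID2, HSPG2, AGRN and FN1 where the table lists them. This gave 33 of 12470 named genes: 9 integrin alpha chains, 7 integrin beta chains, 9 laminin chains, NID1, HSPG2, AGRN, FN1 and 4 further symbols (ITGB1BP1, ITGB1BP2, ITGB1BP3 and ITGB3BP) that the rule takes for their prefix only. ITGBL1 falls outside the rule, with 2.66 ± 1.16 CPM in F5 follicles and 1.59 ± 0.986 CPM in Pre-recruitment follicles (SD, n = 6 each), and LAMB4, the member with the lowest mean level, stood at 0.571 ± 0.252 CPM in F5 follicles and 0.284 ± 0.115 CPM in Pre-recruitment follicles. CPM are counts of a gene scaled to a common total of named-gene counts per library, after TMM scaling between libraries. Other chains of these families, such as ITGA5, ITGB4, LAMA2 and NID2, have no row under these symbols in the deposited table and were not analysed here.

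The tissue was whole follicle from 6 hens aged 12 months, untreated as far as the labels say. Each hen gave 1 follicle labelled Pre-ovulatory F5, here called F5, and 1 labelled Pre-recruitment, so that 12 libraries of poly-A RNA formed 2 stages of 6. Hens keep a hierarchy of large follicles that fill with yolk and ovulate in turn; F5 is a member of it, and recruitment is the entry of a small follicle into it. Bird, genotype and treatment therefore did not differ between the stages, and no strain is given. In bulk tissue, fewer cells of a type and less RNA per cell cannot be told apart, and this holds for every value below.

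Integrins are receptors made of an alpha and a beta chain that span the cell membrane, bind matrix proteins outside and couple to actin inside through talin, kindlin and related adaptors. Laminins are trimers of an alpha, a beta and a gamma chain that polymerise into the sheet on which basement membranes are built; nidogen, perlecan (HSPG2) and agrin (AGRN) link that sheet to collagen IV and to the cell surface. In the ovary, a basement membrane separates the avascular granulosa layer, which surrounds the oocyte, from the vascular theca, and the theca of bird follicles also holds smooth muscle and fibrous matrix. Fibronectin (FN1) is a fibril-forming ligand of several integrins, bound largely through its arginine-glycine-aspartate (RGD) motif.

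Named genes received 28044247 to 40887647 counts per library in F5 follicles and 20628640 to 29082988 in Pre-recruitment follicles. All members together took 1.14% to 1.28% of named counts in the F5 libraries and 0.705% to 0.874% in the Pre-recruitment libraries. FN1 alone took 0.396% to 0.464% in the F5 libraries and 0.123% to 0.186% in the Pre-recruitment libraries. No library stood apart from its stage in correlations of log2 CPM over all tested genes, which ran from 0.973 to 0.99 within stages. Of 15 tested smooth muscle markers 15 rose (18854 to 36727 CPM in sum in F5 follicles, 5078 to 11077 CPM before recruitment), and of 15 theca and fibroblast markers 11 rose and 1 fell (42413 to 54177 CPM in F5 follicles, 22616 to 32469 CPM before recruitment). Of 17 granulosa markers 3 rose and 9 fell (3662 to 5209 CPM in F5 follicles, 4662 to 6060 CPM before recruitment), and of 15 oocyte markers 12 fell and 3 did not pass (210 to 340 CPM in F5 follicles, 533 to 745 CPM before recruitment). None of these markers that the table lists was at 0 in every library. The oocyte markers varied widely among F5 follicles, with a median coefficient of variation of 82.7%, against 27% before recruitment. By the edgeR test described below, 32.9% of all tested genes rose and 32.6% fell in F5 follicles. The part of the smooth muscle, theca and fibroblast, granulosa and oocyte markers in the changes of the members was not tested.

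The members changed in both directions, and most families held members that rose and members that fell. All 33 passed the filter on low counts. With edgeR's quasi-likelihood test at a Benjamini-Hochberg adjusted p under 0.05, 17 rose in F5 follicles, 11 fell and 5 did not pass. Of all 11195 genes tested, 32.9% rose and 32.6% fell, 65.5% in all. The members' median log2 change (F5 over Pre-recruitment) was 0.38, against 0.02 over all tested genes. Ranges of CPM in the 2 stages did not overlap for 18 members (11 higher, 7 lower in F5), against 43.5% of all tested genes. At least 2-fold changes past the threshold were seen in 11 members: ITGA8, ITGB1, ITGB3, ITGB7, LAMB4 and FN1 were higher, and ITGA6, ITGB6, ITGB8, LAMB3 and ITGB1BP2 lower. Over all tested genes 14.5% changed at least 2-fold past the threshold, 4.69% higher and 9.82% lower in F5. Of the 11 members, ITGB6, ITGB7, LAMB3, LAMB4 and ITGB1BP2 were low, with means over all libraries from 0.428 to 2.11 CPM. With a bird or library left out, LAMB4 passed in 11 of 16 fits and ITGB1BP2 in 15 of 18. Directions depend on the scaling to some extent: with library totals alone the median of all genes became -0.21, 11 members rose and 13 fell (2071 and 5200 over all genes), and ITGB1BP1, ITGB1BP3, LAMA4, LAMA5, LAMB1 and LAMB4 no longer passed.

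**Figure D1:**
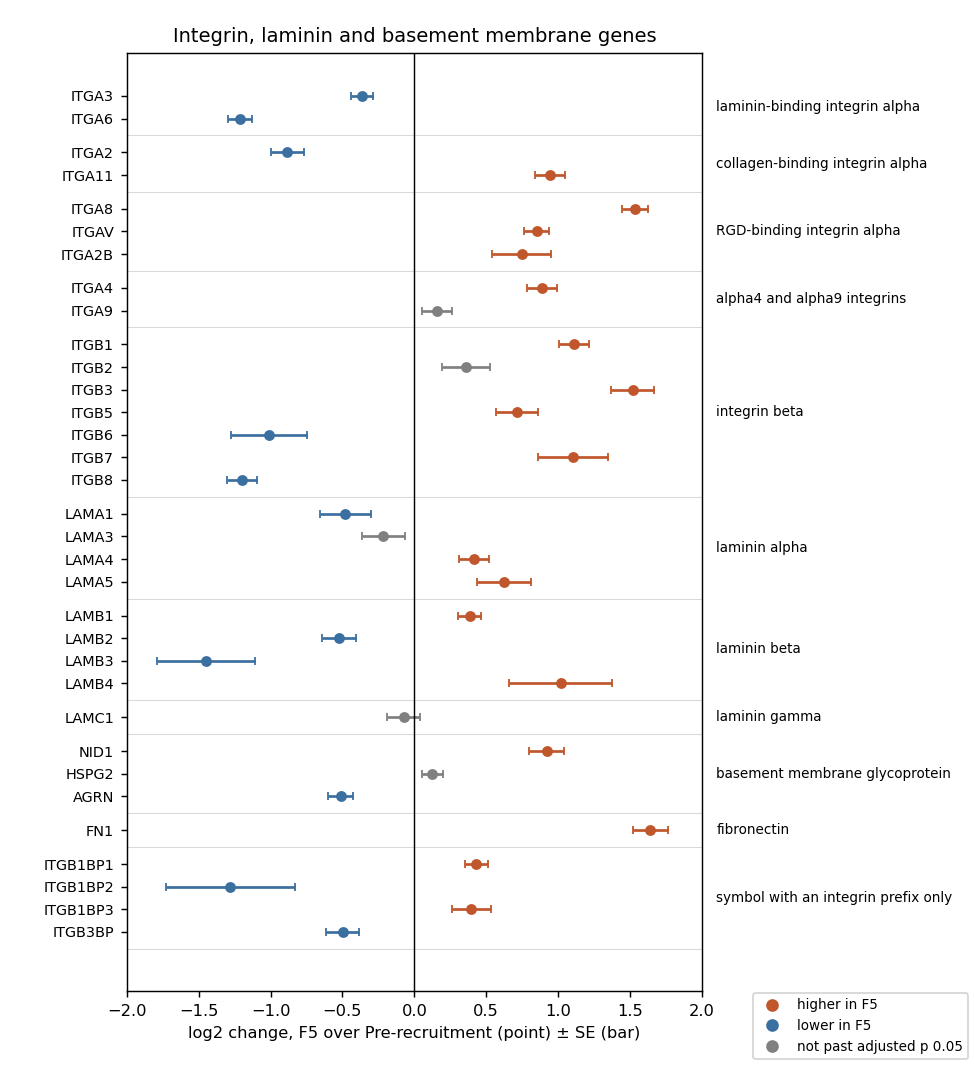
Log2 change of each of the 33 members, F5 over Pre-recruitment (points) with its standard error (bars), grouped by role; orange marks members higher and blue members lower in F5 follicles at an adjusted p under 0.05, grey those not past it. FN1 at 1.64 lies farthest to the right and LAMB3 at -1.45 farthest to the left, and the integrin beta, laminin alpha and laminin beta chains have points on both sides of 0.

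Fibronectin, a matrix ligand, had the largest rise of the 33 members. FN1 measured 4179, 4711 and 5100 CPM (lowest, median and highest) in F5 follicles, against 1082, 1652 and 1702 CPM in Pre-recruitment follicles. Every F5 follicle lay far above every Pre-recruitment follicle, and within birds the difference ran from 1.35 to 2.05 on the log2 scale. The change was 3.11-fold (log2 1.64, SE 0.12, edgeR adjusted p = 1.02e-07). The F5 follicles were also closer to each other, with a coefficient of variation of 7.11% in F5 follicles and 17.9% before recruitment, where birds 5826 and 5840 were lowest.

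The laminin alpha chains moved in opposite directions under TMM scaling. Under library totals alone, neither LAMA5 (log2 change 0.40, edgeR adjusted p = 0.0782) nor LAMA4 (0.19, adjusted p = 0.16) passed as a rise. LAMA5, a chain of laminins found widely in mature epithelial and vascular basement membranes, measured 161, 193 and 327 CPM in F5 follicles, against 100.5, 132 and 204 CPM in Pre-recruitment follicles. Bird 5802 was the highest in each stage and the ranges overlapped, but the F5 follicle was higher in 6 of 6 birds. The log2 change was 0.62 (SE 0.19, edgeR adjusted p = 0.0098). LAMA4, the alpha chain typical of vascular and muscle basement membranes, rose 1.33-fold, with 130, 148 and 176 CPM in F5 follicles and 92.2, 110 and 132 CPM before recruitment (adjusted p = 0.00256 in the same fit, 6 of 6 birds). Of 10 tested endothelial markers 5 rose and 2 fell, against 32.9% and 32.6% of all tested genes. The summed levels of these markers were 809 to 890 CPM in F5 follicles and 724 to 842 CPM before recruitment. Their part in the LAMA4 rise was not tested. LAMA1, the alpha chain of the laminin of early embryos, fell 1.40-fold, with 61.5, 99.9 and 139 CPM in F5 follicles and 110, 143 and 175 CPM before recruitment (log2 change -0.48, SE 0.18, adjusted p = 0.0284, lower in 6 of 6 birds). Its ranges overlapped widely, and it missed the threshold when the F5 follicle of bird 5826 (adjusted p = 0.0505) or 5840 (0.0598), the Pre-recruitment follicle of bird 5802 (0.0539) or 5826 (0.055), or both follicles of bird 5826 (0.0907) or 5840 (0.0763) were left out. LAMA3, a chain of epithelial anchoring laminins, stood at 10.9 ± 2.76 CPM in F5 follicles and 12.7 ± 1.79 CPM before recruitment (SD, n = 6 each, edgeR adjusted p = 0.215). It passed with the bird as a block (adjusted p = 0.0473).

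The same opposition was seen in the beta chains under TMM scaling. Under library totals alone, neither LAMB1 (log2 change 0.15, edgeR adjusted p = 0.065) nor LAMB4 (0.79, adjusted p = 0.0827) passed as a rise. LAMB1, a chain of most early and vascular laminins, measured 470, 545 and 595 CPM in F5 follicles, against 362, 411 and 453 CPM in Pre-recruitment follicles. The stages did not overlap, by a narrow margin, and the rise was 1.30-fold (log2 0.38, SE 0.08, edgeR adjusted p = 6.75e-04, 6 of 6 birds). LAMB2, which replaces LAMB1 in laminins of synapses, kidney glomeruli and muscle vessels in mammals, fell 1.44-fold, with 44.8, 52.2 and 67.9 CPM in F5 follicles and 64.7, 80 and 92.8 CPM before recruitment (adjusted p = 0.00138, lower in 6 of 6 birds). LAMB3, the beta chain that pairs with LAMA3, was near the lower limit of detection, at 0.309 ± 0.174 CPM in F5 follicles and 0.849 ± 0.136 CPM before recruitment (SD, n = 6 each). It was lower in 6 of 6 birds, 2.73-fold on average (log2 -1.45, SE 0.34, edgeR adjusted p = 0.00196). LAMB4, which the RefSeq gene table (GRCg7b, used for names and gene order only) places next to LAMB1 with 0 protein-coding genes between them, rose 2.02-fold from the lowest level of any member (log2 change 1.02, SE 0.36, edgeR adjusted p = 0.0229). It missed the threshold when the F5 follicle of bird 5817 (adjusted p = 0.0633), the Pre-recruitment follicle of bird 5802 (0.0547) or 5810 (0.0591), or both follicles of bird 5802 (0.0674) or 5817 (0.0971) were left out.

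LAMC1, the gamma chain shared by most laminins, did not pass. It measured 737, 914 and 1134 CPM in F5 follicles, against 845, 985 and 1171 CPM in Pre-recruitment follicles, and the ranges overlapped almost fully (log2 change -0.08, SE 0.12, edgeR adjusted p = 0.583, lower in 4 of 6 birds). It passed as a fall under library totals (log2 change -0.30, adjusted p = 0.0497). Bird 5810 had the lowest LAMC1 in each stage.

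The linkers of the basement membrane behaved differently from each other. NID1, nidogen 1, which binds the laminin gamma chain and collagen IV, measured 755, 838 and 1035 CPM in F5 follicles, against 361, 426 and 557 CPM in Pre-recruitment follicles. Its stages did not overlap, and the rise was 1.89-fold (log2 0.92, SE 0.12, edgeR adjusted p = 1.35e-05, 6 of 6 birds). HSPG2, perlecan, a heparan sulfate proteoglycan, did not pass, with 491, 555 and 595 CPM in F5 follicles and 451, 502 and 554 CPM before recruitment (log2 change 0.12, SE 0.07, adjusted p = 0.141), and its sign turned under library totals (-0.10). AGRN, agrin, a heparan sulfate proteoglycan that binds dystroglycan, fell 1.43-fold, with 176, 216 and 246 CPM in F5 follicles and 270, 321 and 335 CPM before recruitment. Its stages did not overlap (log2 change -0.51, SE 0.09, edgeR adjusted p = 1.27e-04, lower in 6 of 6 birds).

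Both laminin-binding integrin alpha chains in the table fell, and the collagen-binding chains moved apart. Over all tested genes 32.6% fell and 32.9% rose, and the stages did not overlap for 43.5%. ITGA6, an alpha chain that binds laminin, measured 30.9, 37.6 and 45.7 CPM in F5 follicles, against 77.9, 89.4 and 96.8 CPM in Pre-recruitment follicles. The stages were far apart and the within-bird difference was narrow, from -1.33 to -1.03 on the log2 scale. The fall was 2.32-fold (log2 change -1.21, SE 0.09, edgeR adjusted p = 6.91e-08). ITGA3, the other laminin receptor chain, fell 1.29-fold, with 72.1, 87.6 and 95.7 CPM in F5 follicles and 100.3, 109 and 124 CPM before recruitment (adjusted p = 7.70e-04 in the same fit, 6 of 6 birds). The stages did not overlap for either collagen receptor chain. ITGA2, which binds collagens and is known from epithelia and platelets, fell 1.85-fold, with 23.6, 33.6 and 38.4 CPM in F5 follicles and 48.5, 59.5 and 68.8 CPM before recruitment (log2 change -0.88, SE 0.11, edgeR adjusted p = 1.33e-05). ITGA11, a receptor for fibrillar collagens known from fibroblasts, rose 1.92-fold, with 312, 348 and 411 CPM in F5 follicles and 148, 181 and 229 CPM before recruitment (log2 change 0.94, SE 0.11, adjusted p = 4.21e-06). Each held its direction in 6 of 6 birds.

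All 3 RGD-binding alpha chains among the members rose, ITGA2B with overlapping ranges. ITGA8, a receptor chain for nephronectin, fibronectin and tenascin that is known from smooth muscle and mesenchyme, measured 438, 478 and 508 CPM in F5 follicles, against 131, 171 and 194 CPM in Pre-recruitment follicles. F5 follicles were again tightly grouped, with a coefficient of variation of 5.92% in F5 follicles and 14.4% before recruitment. The rise was 2.89-fold (log2 1.53, SE 0.09, edgeR adjusted p = 1.88e-08), and within the 6 birds it ran from 1.26 to 1.91. ITGAV, which pairs with several beta chains and binds fibronectin, vitronectin and latent TGF-beta, rose 1.80-fold, with 247, 285 and 308 CPM in F5 follicles and 121, 158 and 183 CPM before recruitment (adjusted p = 1.52e-06, no overlap). ITGA2B, the platelet and thrombocyte chain, was low, at 4.15 ± 0.821 CPM in F5 follicles and 2.47 ± 0.742 CPM before recruitment (SD, n = 6 each; edgeR adjusted p = 0.0055, higher in 5 of 6 birds). GP5, another thrombocyte gene, was low as well and rose to 3.35 ± 0.758 CPM in F5 follicles, against 1.2 ± 0.477 CPM before recruitment. Of the 8 tested thrombocyte and blood markers 3 rose, ITGA2B itself among them, 1 fell and 4 did not pass. The shares over all tested genes were 32.9% higher and 32.6% lower. The summed levels of these markers were 50 to 282 CPM in F5 follicles and 83 to 193 CPM before recruitment. The part of thrombocytes and blood in the ITGA2B change was not tested.

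ITGA4, whose product binds VCAM1 and fibronectin and is known from leukocytes and mesenchyme, rose 1.85-fold, with 77.6, 93.3 and 102 CPM in F5 follicles and 39.1, 50.3 and 57.3 CPM before recruitment. The stages did not overlap and the within-bird difference was the narrowest of the integrin chains that rose, from 0.80 to 1.01 (log2 change 0.89, SE 0.11, edgeR adjusted p = 6.10e-06). Of 15 tested leukocyte markers 1 rose (CD4) and 14 did not pass, while 32.9% of all tested genes rose. The summed levels of these markers were 645 to 1012 CPM in F5 follicles and 575 to 1131 CPM before recruitment. Their median log2 change was 0.34, with median coefficients of variation of 27.5% in F5 follicles and 37.8% before recruitment. The part of leukocytes in the ITGA4 rise was not tested. ITGA9, the related receptor chain for tenascin and VCAM1, stood at 57.6 ± 8.92 CPM in F5 follicles and 51.7 ± 5.48 CPM before recruitment (SD, n = 6 each; edgeR adjusted p = 0.195). It passed when the F5 follicle of bird 5835 was left out (log2 change 0.22, adjusted p = 0.0492), and its sign turned under library totals (-0.07).

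**Figure D2:**
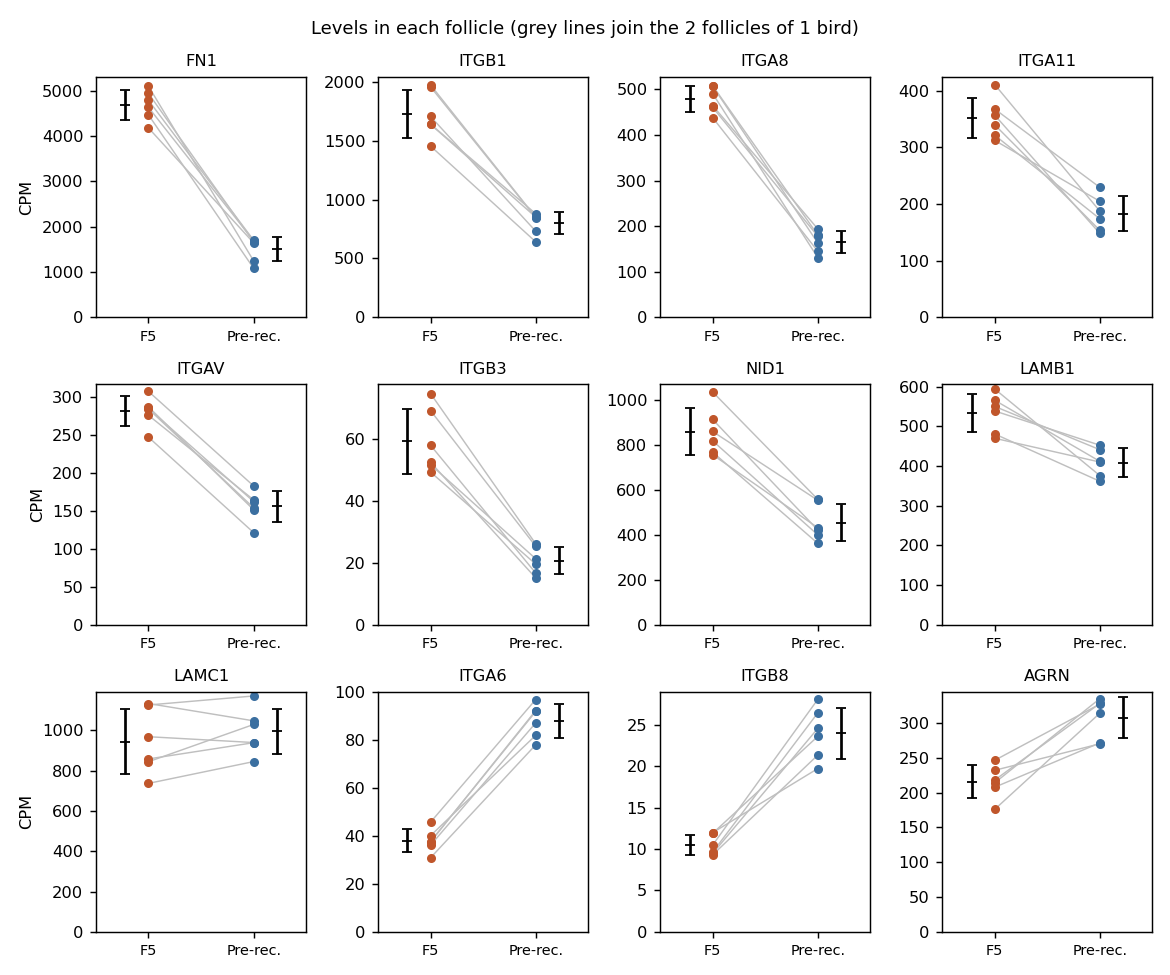
CPM of 12 members in each of the 12 follicles (points), with mean ± SD beside them (black) and grey lines joining the F5 and Pre-recruitment follicle of each bird. FN1, ITGB1, ITGA8, ITGA11, ITGAV, ITGB3, NID1 and LAMB1 are higher in F5 without overlap, ITGA6, ITGB8 and AGRN lower without overlap, and LAMC1 overlaps.

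Beta chains shape how an integrin couples to the cytoskeleton and, where an alpha chain such as ITGAV has several partners, which matrix it binds. ITGB1, the partner of most alpha chains above, measured 1454, 1672 and 1973 CPM in F5 follicles, against 641, 848 and 880 CPM in Pre-recruitment follicles. It rose 2.16-fold without overlap (log2 1.11, SE 0.10, edgeR adjusted p = 6.01e-07), and by 0.90 to 1.22 within birds. Bird 5826 was lowest in each stage. ITGB3, which pairs with ITGAV and ITGA2B, measured 49.4, 55.3 and 74.8 CPM in F5 follicles, against 15.1, 20.5 and 26.2 CPM in Pre-recruitment follicles. The rise was 2.86-fold without overlap (log2 1.52, SE 0.15, edgeR adjusted p = 1.06e-06). Birds 5810 and 5835 had the highest ITGB3 in each stage.

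The other partners of ITGAV went both ways. ITGB5, a vitronectin receptor chain, rose 1.64-fold, with 169, 256 and 320 CPM in F5 follicles and 129, 149 and 193 CPM before recruitment; the lowest F5 follicle, that of bird 5817, lay within the Pre-recruitment range, and the edgeR adjusted p was 6.91e-04. ITGB8, which with ITGAV binds latent TGF-beta, fell 2.29-fold, with 9.29, 10 and 12 CPM in F5 follicles and 19.7, 24.1 and 28.1 CPM before recruitment. Its stages did not overlap (log2 change -1.20, SE 0.10, edgeR adjusted p = 3.42e-07, lower in 6 of 6 birds). ITGB6, the epithelial partner of ITGAV, was low and fell 2.01-fold, with 0.781, 1.22 and 2.43 CPM in F5 follicles and 1.58, 2.95 and 3.31 CPM before recruitment (adjusted p = 0.00383, lower in 5 of 6 birds). Of the leukocyte chains, ITGB2 stood at 23.8 ± 4.82 CPM in F5 follicles and 18.5 ± 4.72 CPM before recruitment (SD, n = 6 each, edgeR adjusted p = 0.0724). ITGB2 passed with the bird as a block (log2 change 0.37, adjusted p = 0.0149), and when the F5 follicle of bird 5840 (0.0453), the Pre-recruitment follicle of bird 5810 (0.0158) or both follicles of that bird (0.0262) were left out. ITGB7, the partner of ITGA4 on lymphocytes, rose 2.15-fold but stayed under 1 CPM, at 0.7 ± 0.158 CPM in F5 follicles and 0.324 ± 0.0812 CPM before recruitment (SD, n = 6 each; edgeR adjusted p = 0.00123).

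The make-up of each family was compared as the share of a chain in all reads of that family, a measure that does not depend on library scaling. Reads of a chain grow with transcript length, which was not at hand, so the shares compare stages and not chains. Over 24 shares, each tested with an exact two-sided permutation test over all 924 assignments of the libraries and adjusted over the 24, 6 were higher in F5 follicles, 11 lower and 7 not past the threshold; the smallest p these permutations can give is 0.00216. Shares of 1 family sum to a fixed whole, so they are not independent of each other. Sign changes within the 6 birds can give no p under 0.03125, which any share moving 1 way in 6 of 6 birds reaches. With 1 bird left out, the permutations can give no p under 0.00794.

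Among the alpha chains, ITGA8 took 33.7% ± 1.91 of reads in F5 follicles and 19% ± 1.75 before recruitment (SD, n = 6 each; exact permutation adjusted p = 0.00371). The share of ITGA6 was 2.68% ± 0.342 in F5 follicles and 10.2% ± 0.835 before recruitment. The share of ITGA3 was 6.04% ± 0.602 in F5 follicles and 12.8% ± 1.47 before recruitment, and that of ITGA2 2.29% ± 0.35 in F5 follicles and 6.99% ± 1.16 before recruitment. All 3 shares were lower in F5 follicles in 6 of 6 birds at the same adjusted exact permutation p. The share of ITGA11 was 24.8% ± 2.53 in F5 follicles and 21% ± 2.21 before recruitment (exact permutation adjusted p = 0.0275), and it missed the threshold with sign changes within birds (adjusted p = 0.0682) and without bird 5810 (0.0847), 5826 (0.0847), 5835 (0.0501) or 5840 (0.0847). Thus 4 of the 9 alpha chains lost share while total alpha chain reads were higher, at 1379 to 1459 CPM in F5 follicles and 753 to 959 CPM before recruitment; the fourth was ITGA9 (4.05% ± 0.59 in F5 follicles and 5.98% ± 0.579 before recruitment).

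Among the beta chains, ITGB1 took 83.4% ± 2.22 of reads in F5 follicles and 78.5% ± 1.83 before recruitment (SD, n = 6 each; exact permutation adjusted p = 0.00693). The ITGB3 share was 2.86% ± 0.282 in F5 follicles and 2.02% ± 0.281 before recruitment. ITGB5 took 12% ± 1.96 in F5 follicles and 15% ± 1.37 before recruitment, and ITGB8 0.51% ± 0.0789 in F5 follicles and 2.39% ± 0.505 before recruitment. ITGB5 thus rose in level and fell in share (exact permutation adjusted p = 0.013). Laminin alpha reads moved away from LAMA1, which took 21.5% ± 3 in F5 follicles and 35.6% ± 6.23 before recruitment, while LAMA5 took 44% ± 3.43 in F5 follicles and 33.3% ± 5.02 before recruitment (exact permutation adjusted p = 0.00371 for each, SD, n = 6). The LAMB2 share was 9.47% ± 1.92 in F5 follicles and 16.3% ± 2.41 before recruitment, and LAMB1 made up most of the remainder. LAMA4 (32.1% ± 3.41 in F5 follicles, 27.9% ± 3.2 before recruitment) and ITGAV (19.8% ± 1.28 in F5 follicles, 18% ± 1.5 before recruitment) did not pass (exact permutation adjusted p = 0.0649 each). Both passed with sign changes within birds (adjusted p = 0.0395), as did the fall of the LAMA3 share. Each of these shares moved 1 way in 6 of 6 birds, which is all that this pass reflects.

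**Figure D3:**
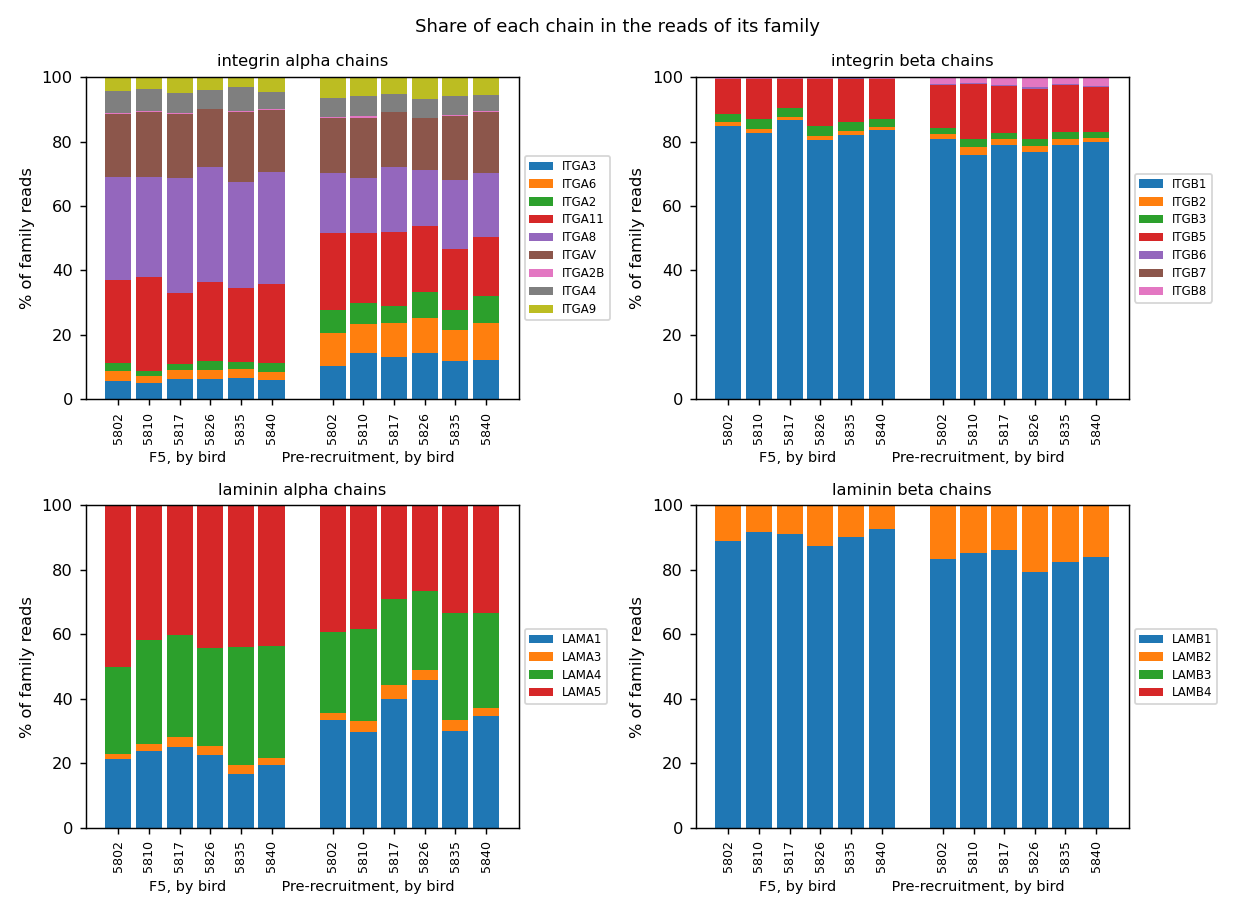
Share of each chain in the reads of its family (stacked bars, % of family reads) in every follicle, F5 birds on the left of each panel and Pre-recruitment birds on the right. The ITGA8 segment is wider in every F5 follicle (31% to 35.6%) than before recruitment (16.8% to 21.3%), and the LAMA1 segment narrower (16.8% to 24.9% in F5, 29.6% to 45.7% before recruitment).

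Ratios of reads between pairs of chains, or of a ligand and a receptor chain, are given as a description, since these pairs were picked with the values known. NID1 had 0.763 to 1.11 reads per LAMC1 read in F5 follicles and 0.385 to 0.532 before recruitment. LAMA5 had 1.61 to 2.61 reads per LAMA1 read in F5 follicles and 0.582 to 1.3 before recruitment. ITGA8 had 0.224 to 0.338 reads per ITGB1 read in F5 follicles and 0.171 to 0.228 before recruitment, whereas ITGA6 had 0.0158 to 0.0279 in F5 follicles and 0.092 to 0.128 before recruitment. The first 3 ratios were higher in F5 follicles in 6 of 6 birds, although the ITGA8 ranges overlapped slightly, and the last was lower in 6 of 6. FN1 had 2.35 to 3.07 reads per ITGB1 read in F5 follicles and 1.69 to 1.99 before recruitment, so the ligand differed more between the stages than this receptor chain in 6 of 6 birds.

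The 4 symbols that share only a prefix with the integrins split evenly. ITGB1BP1, which encodes a cytoplasmic protein that binds the ITGB1 tail and competes with talin, rose 1.35-fold to 32.9 ± 2.01 CPM in F5 follicles, against 24.4 ± 2.73 CPM before recruitment (SD, n = 6 each; edgeR adjusted p = 2.66e-04). ITGB3BP, a kinetochore protein also called CENPR, fell 1.41-fold to 17.6 ± 2.52 CPM, against 24.9 ± 3.9 CPM before recruitment (adjusted p = 0.00184, lower in 6 of 6 birds). ITGB1BP3, whose identity behind this symbol was not settled here, stood at 1089 ± 170 CPM in F5 follicles and 828 ± 154 CPM before recruitment. It passed (edgeR adjusted p = 0.0185), but not without bird 5835 (0.0646) or 5840 (0.0835). ITGB1BP2, the muscle chaperone melusin in mammals, was low and fell, with 0.323, 0.782 and 1.83 CPM in F5 follicles and 0.608, 2.31 and 4.03 CPM before recruitment (edgeR adjusted p = 0.0214). That fall missed the threshold when the Pre-recruitment follicle of bird 5817 (0.057) or both follicles of bird 5802 (0.0718) or 5826 (0.0676) were left out. Without these 4 symbols, 15 of 29 members rose and 9 fell, against 32.9% and 32.6% of all tested genes.

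The sign was the same in 6 of 6 birds for 25 of the 33 members, and for 62.1% of all tested genes. The widest ranges between birds were those of low genes, with ITGB1BP2 from -2.16 to -0.18, ITGB6 from -1.87 to 0.05 and LAMB3 from -2.64 to -0.86 on the log2 scale. Within stages the median coefficient of variation of the members was 15.5% in F5 follicles and 14.8% before recruitment, against 12.3% and 11.7% over all tested genes. Of the members above 100 CPM on average, LAMA5 varied most, with 28.2% in F5 follicles and 27% before recruitment, and LAMA1 next, with 27.4% and 18.8%.

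**Figure D4:**
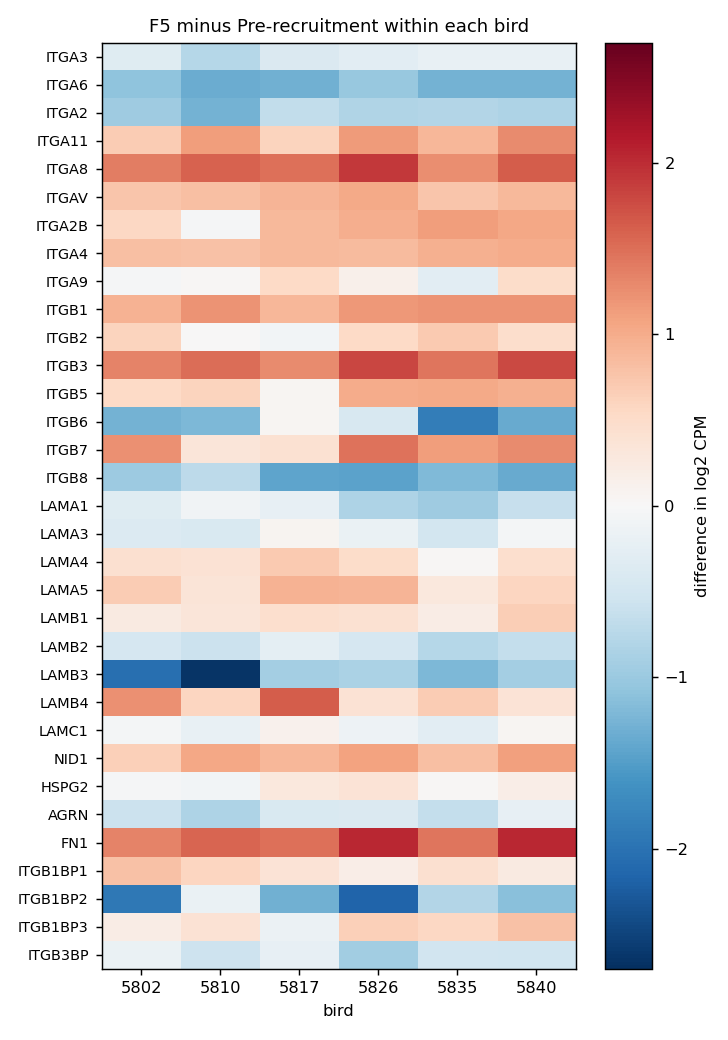
Difference in log2 CPM between the F5 and the Pre-recruitment follicle of each bird (columns) for the 33 members (rows); red is higher in F5 and blue lower. FN1, ITGA8, ITGB3 and ITGB1 are red and ITGA6, ITGB8 and ITGA2 blue in every bird, while ITGB6 in bird 5817 (0.05) and ITGB2 in birds 5810 and 5817 are near 0.

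Other genes of the pathway were read from lists by function, chosen with earlier results of these data known. Of 37 other basement membrane and cell-surface matrix genes tested, 22 rose and 5 fell (median log2 change 0.55). Over all tested genes 32.9% rose and 32.6% fell (median 0.02). FBLN1, fibulin 1, rose 2.33-fold to 828 ± 38.8 CPM in F5 follicles, against 355 ± 40.2 CPM before recruitment, and it is also on the theca and fibroblast list. GPC4, a glypican, rose 2.48-fold, DDR2, a collagen receptor kinase, 2.21-fold, and COL4A2, a chain of the main basement membrane collagen, 2.41-fold to 2371 ± 195 CPM, against 985 ± 146 CPM (SD, n = 6 each; edgeR adjusted p between 3.04e-08 and 3.19e-07 for these genes). Its partner COL4A1, named after its values were seen, rose 2.45-fold. Collagen IV and NID1 were thus higher in the same F5 libraries in which AGRN was lower, and LAMC1 did not pass.

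Of 34 other integrin ligands tested, 16 rose and 7 fell (median 0.37), against 32.9% and 32.6% of all tested genes (median 0.02). FBN1, fibrillin 1, rose 2.64-fold to 1865 ± 217 CPM in F5 follicles, against 705 ± 85.8 CPM before recruitment. The thrombospondins THBS1 and THBS2 rose 5.49-fold and 2.12-fold, and CCN3, a matricellular protein, 3.44-fold. Of 4 known ligands of RGD-binding integrins named after their values were seen, 1 rose, 1 fell and 2 did not pass. TNC, tenascin C, rose 2.20-fold (adjusted p = 0.00821 in the edgeR fit), while NPNT, nephronectin, stood at 87.8 ± 11.9 CPM in F5 follicles and 80 ± 12.6 CPM before recruitment (SD, n = 6 each; edgeR adjusted p = 0.307) and VTN, vitronectin, at 17.6 ± 7.14 CPM in F5 follicles and 16.4 ± 9.19 CPM before recruitment (adjusted p = 0.833). SPP1, osteopontin, fell, with 1.09, 2.77 and 8.64 CPM in F5 follicles and 6.07, 62.5 and 246 CPM before recruitment (edgeR adjusted p = 9.33e-04). Its Pre-recruitment follicles varied widely and the stages overlapped, but it was lower in F5 in 6 of 6 birds.

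Of 43 integrin adaptor and focal adhesion genes tested, 22 rose and 13 fell (median 0.25). The shares over all tested genes were 32.9% and 32.6% (median 0.02). VCL, vinculin, which links talin to actin, rose 2.17-fold to 491 ± 31.9 CPM in F5 follicles, against 226 ± 29.8 CPM before recruitment, and FERMT2, kindlin 2, an activator of integrin beta tails, 1.88-fold. The tetraspanins CD151, a partner of laminin-binding integrins, and CD82 fell 2.04-fold and 2.12-fold, with CD151 at 171 ± 11.1 CPM in F5 follicles and 349 ± 11 CPM before recruitment (SD, n = 6 each). The edgeR adjusted p lay between 7.47e-09 and 2.23e-07 for these genes. Further adaptor genes were named after their values were seen. ILK, integrin-linked kinase, a scaffold at the beta tail, rose 1.66-fold, TLN1, talin 1, stood at 424 ± 24.5 CPM in F5 follicles and 433 ± 28.3 CPM before recruitment (adjusted p = 0.688), and the tyrosine kinases PTK2 (focal adhesion kinase) and SRC fell 1.41-fold and 1.71-fold. CD9, a further tetraspanin, fell 3.83-fold. CD9, CD151, CD82 and ITGA6 were lower in the F5 libraries, in which 9 of 17 granulosa markers fell and 3 rose. Of 15 oocyte markers 12 fell there. The part of granulosa cells and oocytes in these falls was not tested.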

How the data were processed

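Estimated counts per gene symbol were deposited by the authors for 12 libraries. The file is named for kallisto in the labels, and the submitters' processing notes list kallisto 0.44.0, bcl2fastq 2.19, DESeq2 1.38.3 and the builds GRCg6a and galGal6 without a role. Per the labels' protocols, TruSeq poly-A libraries were read as paired 100 bp reads. The sources used here do not say how transcripts were summed or whether strand was used, so reads of overlapping antisense genes and close paralogs may be shared. The deposited estimated counts were whole numbers, and rounding changed 0 values. A row with no gene name, 6.24% to 6.87% of counts in F5 and 8.42% to 9.79% in Pre-recruitment libraries, was left out.

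Genes passing filterByExpr (minimum count 10) were scaled by TMM and tested across all 11195 genes with edgeR 4.0.16 (limma 3.58.1, R 4.3.3) by robust quasi-likelihood, stage as the only term, two-sided, with Benjamini-Hochberg adjustment at 0.05. Standard errors are the log2 change divided by the square root of F. Log2 CPM use a prior count of 2. Fold changes come from that fit. The planned division of family shares by coding length was not made, since lengths were not at hand. The code was tested on simulated data.

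All members are described. The rule for full values took members with a mean of 5 CPM or more, a called change of at least 2-fold, and the chain with most reads in each family; others are given for contrast. Up to 4 genes with the smallest p were named from each pathway list. A result within the thrombocyte and blood list is not reported here. The members and lists were chosen with earlier results of these data known.

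Both stages come from the same 6 birds by the labels. Across genes, correlations of deviations from the stage mean ran from 0.13 to 0.39 between follicles of 1 bird and from -0.30 to 0.30 between birds. The paired alternative takes the bird as a block. Other alternatives were library totals, RLE factors, DESeq2 1.42.0, other low-count filters, the blank row kept, and each bird or library left out. Libraries of 1 stage differed by more than sampling noise (smallest chi-square per degree of freedom 24). RefSeq symbols matched 31 of 33 members.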

Additional observations from a re-analysis of the deposited data

Results flagged for a closer look

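Over 66 checks of a member in the 6 follicles of a stage, 3 follicles lay apart from the others by Dixon's criterion; chance flags about 1 in 20 such groups. LAMA5 in the F5 follicle of bird 5802 was the highest at 327 CPM, with the next at 207 CPM, and that bird also had the highest Pre-recruitment value. Without that library the LAMA5 log2 change was 0.46 (edgeR adjusted p = 0.0178), in place of 0.62. LAMA3 in the F5 follicle of bird 5817 was the highest at 16.3 CPM, with the next at 11.2 CPM. Without it LAMA3 passed as a fall (log2 change -0.37, edgeR adjusted p = 0.0118), and also without that bird (-0.30, adjusted p = 0.0253). ITGB6 in the Pre-recruitment follicle of bird 5817 was the lowest at 1.58 CPM, with the next at 2.83 CPM. Without it the ITGB6 log2 change was -1.13 (edgeR adjusted p = 0.00137), in place of -1.01.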

How the results depend on the processing

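Under 25 alternatives, 20 of the 28 called members kept their direction and their side of the threshold in every fit in which they were tested. The count of members higher in F5 follicles moved from 17 to 11 under library totals. Over all 11195 tested genes the count moved from 3681 to 2071. Over single birds or libraries left out the count of members higher ran from 15 to 18, and of members lower from 9 to 12. In those fits 3211 to 3644 of all genes were called higher and 3389 to 3747 lower. The paired fit, with the bird as a replicate block, called 18 members higher and 12 lower (3866 and 3845 of 11195 over all genes). It changed no other member's call than those of ITGB2 and LAMA3. DESeq2 called 17 members higher and 11 lower (3773 and 3860 of 12360 over all genes). Signs turned for HSPG2 (-0.10) and ITGA9 (-0.072) under library totals, and for the ITGA2B share (-0.0136 to 0.0453 points over birds left out, lowest without 5835) and the ITGB7 share (-1.69e-04 to 0.00598 points, lowest without 5826), none of them called. LAMA3 also passed under library totals (log2 change -0.44, edgeR adjusted p = 0.0253), and the LAMA3 and LAMA4 shares passed without birds 5802 and 5835 (exact permutation adjusted p = 0.0224 and 0.0448). LAMB4 was not tested without bird 5835 or 5840. The CPM scale for shares was the main one, so its alternative was not run. Depth limits LAMB3, LAMB4 and ITGB7, which had 2 to 32 counts per library.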
